A study of Mus musculus with 4 samples.

Results

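The mitochondrial genome was described through every gene placed on chrM in the deposited count tables, 37 of 50600 genes. They comprise 13 protein-coding (mRNA) genes, 2 ribosomal RNA (rRNA) genes and 22 transfer RNA (tRNA) genes. The plus strand of the mm10 build holds 28 of them (12 mRNA, 2 rRNA and 14 tRNA genes), and the minus strand holds mt-Nd6 and 8 tRNA genes. All 4 libraries form 1 group, biological replicates 1 to 4 of primary mouse cells (strain C57BL/6NJ) labelled T-helper 2 (Th2). Th2 cells are CD4 T cells known for secreting interleukin 4, interleukin 5 and interleukin 13. The labels name no altered allele, agent, age or sex, and the file headers place the samples at hour 0 of a time course of Th1 and Th2 cells. The 4 samples share 1 donor identifier and separate mice are not stated, so p-values here measure only the spread between these samples, which may be technical.

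Mammalian mitochondrial DNA is a small circle that is transcribed on both strands as long precursor RNAs. Most genes lie on one strand and abut each other, with tRNAs standing between the mRNAs and rRNAs, so that excision of the tRNAs by mitochondrial RNase P and RNase Z releases the other RNAs. The mRNAs encode core subunits of the respiratory chain and ATP synthase, while the rRNAs and tRNAs serve the organelle's own ribosomes. T cells are known to enlarge their mitochondrial mass and respiration when they are activated.

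Libraries held 1452053 to 2351916 counts, and a count of 0 allows up to 3 counts, or 1.28 to 2.07 CPM (the count scaled to the library total) per library. All 7 T cell markers were counted, while of 6 Th2 markers Il5 and Il13 were at 0 in every library. Il4 had 7.96 ± 5.76 TPM (SD, n = 4), the count scaled to exon length and to the library, and Gata3, which shares bases with an opposite-strand exon, had 5.87 ± 2.08 TPM. Ms4a1 of B cells, Lyz2 of myeloid cells and Hbb-bs and Hba-a1 of red cells were at 0, while Cd79a of B cells had 39.0 ± 3.91 TPM. Csf1r of myeloid cells had 107 ± 10.7 TPM and Alas2 of red cells 12.1 ± 5.07 TPM, and both share bases with an opposite-strand exon. The assay is labelled total RNA-seq, whereas the library protocol linked from the labels is named for poly(A) RNA. The file headers describe the libraries as stranded and paired-end, but the orientation of the first read is not given in the sources used here. A count is therefore a fragment whose first read has the annotated orientation of a gene, and it was not read as the level of the named transcript. If first reads lay opposite to the RNA, the counts of each gene would come from RNA of the other strand, and every direction between strands given here would turn. In the nuclear genome, the 42380 of 50563 genes with no exon on the opposite strand (83.8%) held 11.5% ± 1.07 of nuclear counts. These genes thus held a far smaller share of nuclear counts than of nuclear genes. This value bears on the orientation, which was not tested here. The strand contrasts below are therefore contrasts of counts and do not show which strand's RNA was more abundant.

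The sequences below show the places on which the strand contrast rests, taken from GENCODE release M21 transcripts of GRCm38, the assembly that mm10 names. They are written 5′ to 3′ on each gene's own strand. The first 3 are whole tRNA genes: mt-Tp for proline (chrM:15356-15422, minus) and mt-Te for glutamate (chrM:14071-14139, minus), the most counted tRNA genes, and mt-Tt for threonine (chrM:15289-15355, plus), whose 3′ end meets the 3′ end of mt-Tp. Capitals mark the anticodon, found as the middle 3 bases of a 7-base loop between 2 arms of 5 bases, of which 5 pair in mt-Tp and mt-Te and 4 in mt-Tt.
mt-Tp: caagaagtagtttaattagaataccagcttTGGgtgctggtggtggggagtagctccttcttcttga
mt-Te: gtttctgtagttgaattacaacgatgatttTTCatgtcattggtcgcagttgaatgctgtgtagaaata
mt-Tt: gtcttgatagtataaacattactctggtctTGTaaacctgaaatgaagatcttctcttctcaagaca
The next pair is the meeting of mt-Nd6 and mt-Nd5, whose 3′ ends overlap by 14 bases on opposite strands, shown as the last 60 bases of each gene (chrM:13552-13611, minus, and chrM:13506-13565, plus). Capitals mark the 14 shared bases, which are reverse complements of each other.
mt-Nd6: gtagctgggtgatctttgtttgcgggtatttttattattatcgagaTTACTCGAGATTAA
mt-Nd5: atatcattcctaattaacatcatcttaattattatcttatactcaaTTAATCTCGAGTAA
mt-Nd6 had 28.1% G and 5.97% C on its own strand, whereas the 12 plus-strand mRNA genes had 5.88% (mt-Atp8) to 16.1% (mt-Co1) G.

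Mitochondrial genes took 1.78%, 1.53%, 1.95% and 1.85% of all counts in replicates 1 to 4, a mean of 1.78% ± 0.179 (SD, n = 4). Counting error alone gave 95% exact binomial (Clopper-Pearson) intervals no wider than 1.83% to 1.87%, the interval of replicate 4, and covers no other source of error. Without mt-Nd6 on either side the share was 0.175% ± 0.0309. In bulk RNA, fewer cells of a type and less mitochondrial RNA per cell cannot be told apart. The counting command also took a single read orientation and did not ask for fragments of more than 1 place or gene. The share therefore does not measure all mitochondrial RNA. At least 1 count in every library was found for 16 of the 37 genes, or 43.2%, where 20.3% of all genes met the same rule. No count in any library was found for 14 of the 37, beside 66.4% of all genes.

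The 2 strands were counted very unequally. Minus-strand genes held 95.5%, 90.6%, 92.3% and 92.5% of mitochondrial counts in replicates 1 to 4, while plus-strand genes held 4.49%, 9.42%, 7.70% and 7.49%. With first reads opposite to the RNA, the minus-strand share, 92.7% ± 2.05 (SD, n = 4), would be RNA of plus orientation at the positions of minus-strand genes. Per kilobase of exon, the minus strand averaged 30069 ± 4732 counts and the plus strand 174 ± 54.1 counts (SD, n = 4). The minus strand was thus denser by 8.16, 7.02, 7.33 and 7.38 on the log2 scale, with 0.5 counts added to each sum, a mean of 7.47 ± 0.49. All 4 libraries showed this direction, and an exact two-sided sign-flip permutation test gave p = 0.125 (adjusted p = 0.143 over 8 density ratios by the Benjamini-Hochberg method). This is the smallest p that 4 libraries allow, so no density ratio here could pass 0.05.

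**Figure D1:**
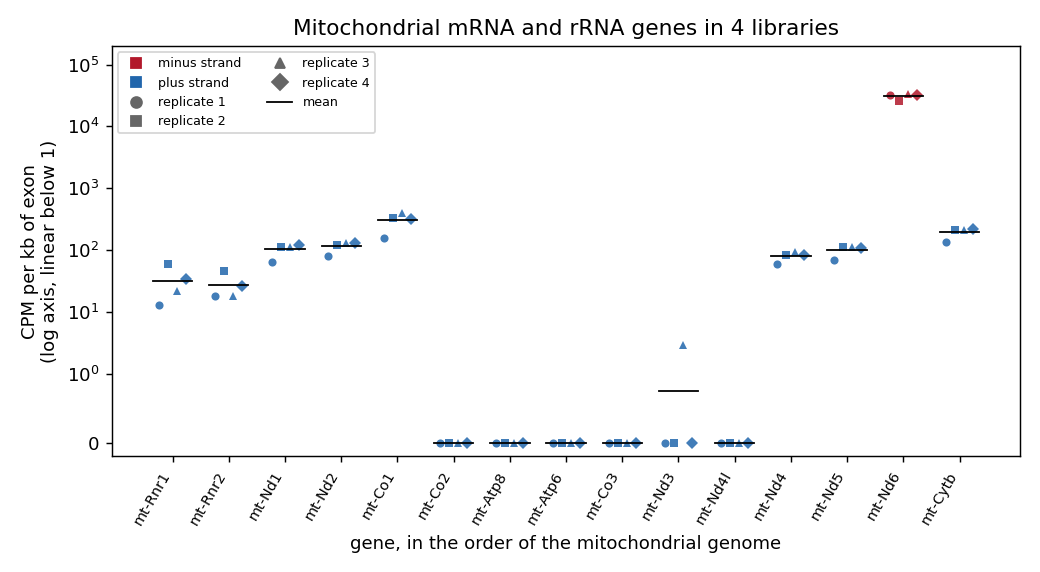
CPM per kb of exon (log axis, linear below 1) of the 2 rRNA and 13 mRNA genes, in genome order from left to right. Symbols are the 4 libraries, lines are means, red is the minus strand and blue the plus strand. mt-Nd6 stands at 30975 CPM per kb, the counted plus-strand genes from mt-Rnr1 to mt-Co1 and from mt-Nd4 to mt-Cytb lie between 27.3 and 303 on average, and those from mt-Co2 to mt-Nd4l lie at or near 0.

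mt-Nd6, which encodes a membrane subunit of respiratory complex I, made up most of the minus strand. It lies at chrM:13552-14070 (ENSMUSG00000064368.1), a single exon of 519 bases. It had 35280, 31774, 33702 and 24273 counts in replicates 1 to 4, which was 90.3% ± 1.91 of mitochondrial counts and ranked it 2nd of all 50600 genes in every library. The libraries lay close together, with 16553, 13510, 17524 and 16716 CPM and a coefficient of variation of 11.0%. mt-Cytb, the cytochrome b of complex III, lies just beyond mt-Te on the plus strand (chrM:14145-15288) and had 329, 578, 470 and 367 counts. The density of mt-Nd6 exceeded that of mt-Cytb by 7.88, 6.92, 7.30 and 7.19 on the log2 scale, a mean of 7.32 ± 0.41 or 160-fold (exact sign-flip permutation, p = 0.125, adjusted p = 0.143). Library by library, the lowest mt-Nd6 density was 46769 counts per kb and the highest mt-Cytb density 505 counts per kb, so the genes did not overlap.

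Of the 6 plus-strand subunit genes of complex I, 4 were counted in every library, and mt-Nd3 and mt-Nd4l belong to the low stretch described below. mt-Nd1 (chrM:2751-3707) had 133, 258, 210 and 167 counts and mt-Nd2 (chrM:3914-4951) had 180, 300, 258 and 200. mt-Nd4 (chrM:10167-11544) had 175, 272, 249 and 169 counts and mt-Nd5 (chrM:11742-13565) had 274, 483, 397 and 287. Their means were 201 ± 56.5, 226 ± 52.8, 157 ± 37.7 and 198 ± 54.1 counts per kb in that order (SD, n = 4). The ranges of all 4 genes over libraries overlapped, although mt-Nd4 was the least dense of them in 4 of 4 libraries. Scaled to CPM, replicate 1 was the lowest library for each of these 4 genes, for mt-Cytb and for mt-Co1.

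mt-Co1, the catalytic subunit of cytochrome c oxidase (complex IV), was the densest plus-strand gene. At chrM:5328-6872 it had 526, 1192, 1201 and 714 counts, or 588 ± 221 counts per kb (SD, n = 4), and held 32.5%, 38.7%, 43.1% and 37.5% of plus-strand mRNA counts. mt-Cytb followed it with 381 ± 97.8 counts per kb. The genes mt-Nd1, mt-Nd2 and mt-Co1, upstream of the low stretch described next, together exceeded mt-Nd4, mt-Nd5 and mt-Cytb downstream of it by 0.40, 0.69, 0.88 and 0.69 on the log2 density scale. The mean was 0.66 ± 0.19, or 1.59-fold, with the same direction in 4 of 4 libraries (exact sign-flip permutation, p = 0.125, adjusted p = 0.143). This excess rested on mt-Co1. mt-Nd1 and mt-Nd2 averaged 201 and 226 counts per kb, below the 233 ± 60.1 of the 3 downstream genes together. Densities used the full exon length, although 48.1% of mt-Co1 and 63.6% of mt-Nd4 lay in 100-base windows shared with nuclear transcripts, as described below.

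Between mt-Co1 and mt-Nd4 lay a stretch of genes with almost no counts. mt-Co2 and mt-Co3 (subunits of complex IV), mt-Atp8 and mt-Atp6 (subunits of ATP synthase) and mt-Nd4l (complex I) had 0 counts in every library, a limit of 1.28 to 2.07 CPM by library. mt-Nd3, another complex I subunit, had 2 counts in replicate 3 and 0 in the other libraries. With the tRNA genes mt-Tk, mt-Tg and mt-Tr, the 9 genes from mt-Co2 to mt-Nd4l (chrM:7013-10173) held 2 counts over 3199 bases in all 4 libraries, where the 6 plus-strand mRNA genes outside them held 9389 counts over 7886 bases. mt-Atp8 and mt-Atp6 also overlap each other by 43 bases on the same strand, and the counting command did not ask for fragments of more than 1 gene.

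Nuclear copies of this stretch were looked for, because the counting command also did not ask for fragments that align to more than 1 place. On chromosome 1, 7 unprocessed pseudogenes stand in a row on the minus strand (chr1:24611535-24616197, mm10), in the order of the mitochondrial genes. Gm28661 matched mt-Co2 over 681 bases, Gm10925 matched mt-Atp6 over 678, Gm28437 matched mt-Co3 over 783 and Gm10222 matched mt-Nd4l over 294, each at 100% identity. Gm28439 matched bases 1 to 876 of mt-Nd4 at 100%, Gm29216 matched bases 1063 to 1545 of mt-Co1 at 99.8%, and Gm28438 matched 345 bases of mt-Nd3 at 99.7%. The copies span chrM:6390-11042, and 5 of the 6 distances between neighbouring copies equalled those on chrM, the exception being 73 bases on chrM against 74 on chromosome 1, between mt-Nd3 and mt-Nd4l or their copies.

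The pairs below show how little told a fragment of either locus apart, namely the first bases of mt-Nd3 (chrM:9459-9491, plus) and its copy (chr1:24613087-24613119, minus), then bases 1063 to 1096 of mt-Co1 (chrM:6390-6423, plus) and its copy (chr1:24616155-24616188, minus). Capitals mark the bases that differ, T3C in mt-Nd3 and A1066T in mt-Co1, counted from 1 at the 5′ end of the mitochondrial gene, with the mitochondrial base first.
mt-Nd3: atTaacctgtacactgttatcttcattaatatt
Gm28438: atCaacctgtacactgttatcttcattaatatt
mt-Co1: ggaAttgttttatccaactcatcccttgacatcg
Gm29216: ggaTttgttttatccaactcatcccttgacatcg
These were the only differences in the matched stretches of these pseudogenes.

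Copies and counts were set side by side for the 13 mRNA genes. The share of a gene's bases lying in a 100-base window found unchanged in a nuclear transcript was 99.6% for mt-Co2, 99.6% for mt-Atp6, 99.9% for mt-Co3, 98.3% for mt-Nd3 and 99.0% for mt-Nd4l, the genes with 0 to 2 counts in all. It was 63.6% for mt-Nd4, 48.1% for mt-Co1 and 12.4% for mt-Nd2, and 0% for mt-Nd1, mt-Nd5, mt-Cytb and mt-Nd6, all of which were counted. With 50-base windows it was 74.9% for mt-Co1, 24.3% for mt-Nd5 and 17.2% for mt-Nd2. Only annotated nuclear transcripts were searched, so a share of 0% does not exclude copies elsewhere. mt-Atp8 departed from this order, with 0 counts and a share of 0%, its best match among annotated nuclear transcripts being Gm28925 at 81.4%. The chromosome 1 bases between the copies of mt-Co2 and mt-Atp6, 233 as on chrM, correspond to mt-Tk and the start of mt-Atp8 but belong to none of the 7 pseudogenes, and their sequence was not analysed here. The pseudogenes were themselves nearly uncounted: Gm28438, the copy of mt-Nd3, had 4, 4, 6 and 4 counts, Gm28661 had 1 count in replicate 4, and the other 5 had 0. The part of these copies in the low counts was not tested.

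**Figure D2:**
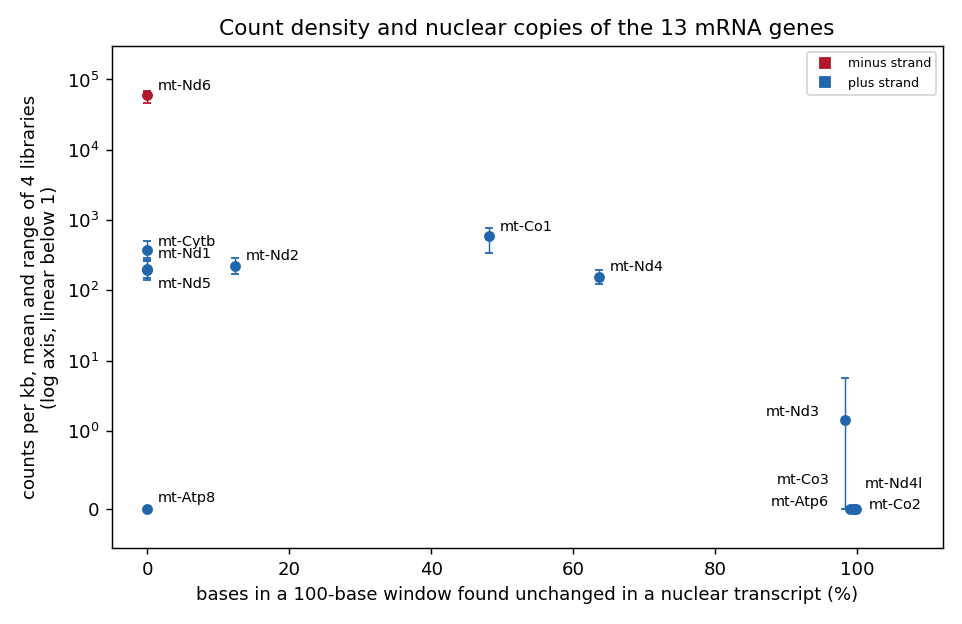
Counts per kb (log axis, linear below 1; points are means, bars the lowest and highest of 4 libraries) of the 13 mRNA genes against the percentage of their bases in a 100-base window found unchanged in a nuclear transcript. mt-Nd3, mt-Co2, mt-Atp6, mt-Co3 and mt-Nd4l, at 98.3% to 99.9%, lie at or near 0, mt-Nd4 and mt-Co1 are counted at 63.6% and 48.1%, and mt-Atp8 is at 0 on both axes.

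The rRNA genes were counted below the plus-strand mRNA genes. mt-Rnr1, the small subunit rRNA (chrM:70-1024), had 26, 134, 40 and 47 counts, and mt-Rnr2, the large subunit rRNA (chrM:1094-2675), had 61, 172, 56 and 61. Replicate 2 stood above the other libraries for both genes. In the same library the nuclear ribosomal RNA locus CT010467.1 also held its highest share of all counts, 16.8%, beside 6.90%, 3.47% and 12.6% in replicates 1, 3 and 4, and its part in the mitochondrial values was not tested. Together the rRNA genes had 58.8 ± 41.3 counts per kb (SD, n = 4), or 38.2 ± 4.15 without replicate 2 (SD, n = 3), and plus-strand mRNA genes had 216 ± 64.2. The log2 density ratio of rRNA to plus-strand mRNA genes was -2.11, -1.23, -2.75 and -2.03 by library, a mean of -2.03 ± 0.62 (exact sign-flip permutation, p = 0.125, adjusted p = 0.143). This direction came from sums over genes and turned to 1.65 when log2 densities were averaged over genes, with 5 of the 12 mRNA genes at 0. Between the rRNA genes themselves, mt-Rnr1 over mt-Rnr2 was -0.49, 0.37, 0.25 and 0.36 on the log2 density scale, a mean of 0.12 ± 0.41, which did not exceed the spread between libraries (exact sign-flip permutation, p = 0.625, adjusted p = 0.625).

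Among tRNA genes the sums of the 2 strands lay far apart in every library. The 8 minus-strand tRNA genes held 1028, 857, 936 and 603 counts, while the 14 plus-strand tRNA genes held 3, 3, 6 and 3. Over all libraries, 3424 counts against 15 gave a density ratio of 396, with an exact 95% counting interval of 240 to 708. The mean log2 ratio was 8.48 ± 0.47 (8.99, 8.73, 7.96 and 8.22 by library, with 0.5 counts added to each sum; exact sign-flip permutation, p = 0.125, adjusted p = 0.143). The plus-strand tRNA genes were also below the plus-strand mRNA genes, by a mean log2 density ratio of -5.60 ± 0.47 (exact sign-flip permutation, p = 0.125, adjusted p = 0.143).

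mt-Tp and mt-Te, the proline and glutamate tRNA genes shown above, held 3079 of the 3424 minus-strand tRNA counts. mt-Tp had 726, 643, 665 and 466 counts, and mt-Te had 211, 146, 151 and 71. The count of mt-Tp stayed at 2.06%, 2.02%, 1.97% and 1.92% of that of mt-Nd6, while mt-Te, which directly abuts mt-Nd6 on the same strand, ranged from 0.293% to 0.598% of it. Without mt-Te and mt-Tp the minus-strand tRNA genes still exceeded the plus-strand ones, by 5.57 ± 0.23 on the log2 density scale, but no longer exceeded the plus strand as a whole beyond the spread (0.28 ± 0.60, exact sign-flip permutation, p = 0.375), against 3.19 ± 0.55 with them. mt-Tt, whose 3′ end meets that of mt-Tp from the other strand, had 0, 0, 3 and 1 counts.

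The remaining minus-strand tRNA genes had at most 36 counts in a library. mt-Ta (alanine) had 36, 19, 32 and 21 counts and mt-Tq (glutamine) had 14, 19, 33 and 14. mt-Tc (cysteine), mt-Ty (tyrosine) and mt-Tn (asparagine), which stand in a cluster with mt-Ta between mt-Nd2 and mt-Co1, had 63, 51 and 23 counts over the 4 libraries. mt-Ts1 (serine), at the 3′ end of mt-Co1, had 2, 5, 0 and 13, the most uneven of the minus-strand genes. On the plus strand, mt-Ts2 (serine) had 0, 0, 3 and 1 counts, mt-Th (histidine) had 1, 2, 0 and 0, mt-Tl2 (leucine) had 2, 0, 0 and 1, and mt-Tv (valine) had 1 count in replicate 2. The 9 others, mt-Tf, mt-Tl1, mt-Ti, mt-Tm, mt-Tw, mt-Td, mt-Tk, mt-Tg and mt-Tr, had 0 counts in every library.

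**Figure D3:**
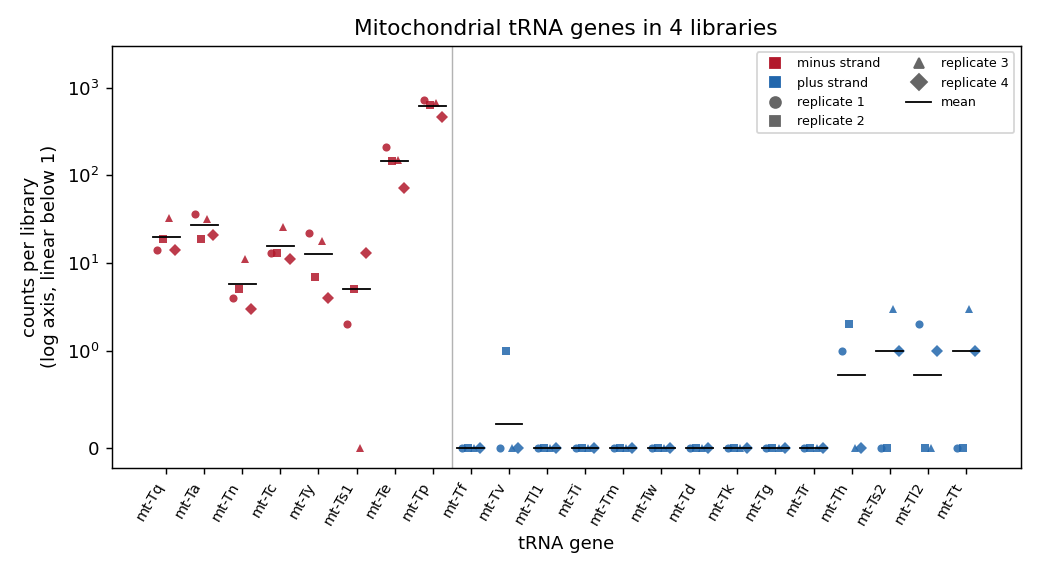
Counts per library (log axis, linear below 1) of the 22 tRNA genes, with the 8 minus-strand genes in red on the left and the 14 plus-strand genes in blue on the right. Symbols are libraries and lines are means. mt-Tp reaches 466 to 726 counts, and no plus-strand tRNA gene exceeds 3 counts in any library.

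The strands differed in how closely tRNA genes abut other genes. Within a strand, 15 plus-strand counts and 8 minus-strand genes are too few to show whether counts go with it. All 14 plus-strand tRNA genes had another plus-strand gene within 5 bases on at least 1 side, and 8 had one on both sides. Those 8 held 11 of the 15 plus-strand tRNA counts, and the other 4 were all in mt-Tt, which has a neighbour on 1 side. Of the 8 minus-strand tRNA genes, 5 had a minus-strand gene within 5 bases and none had one on both sides. No minus-strand gene lay within 100 bases of mt-Tp, mt-Tq or mt-Ts1, which had 2500, 80 and 20 counts over the 4 libraries, the highest, the 4th highest and the lowest of the 8. mt-Te and mt-Ta, each with a neighbour within 5 bases, had 579 and 108. tRNA genes were of like length on both strands, 66 to 71 bases on the minus and 59 to 75 on the plus strand. Because fragments of more than 1 gene were not requested, a fragment that reached into an abutting gene on the same strand was not counted, and the part of this in the strand contrast was not tested.

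**Figure D4:**
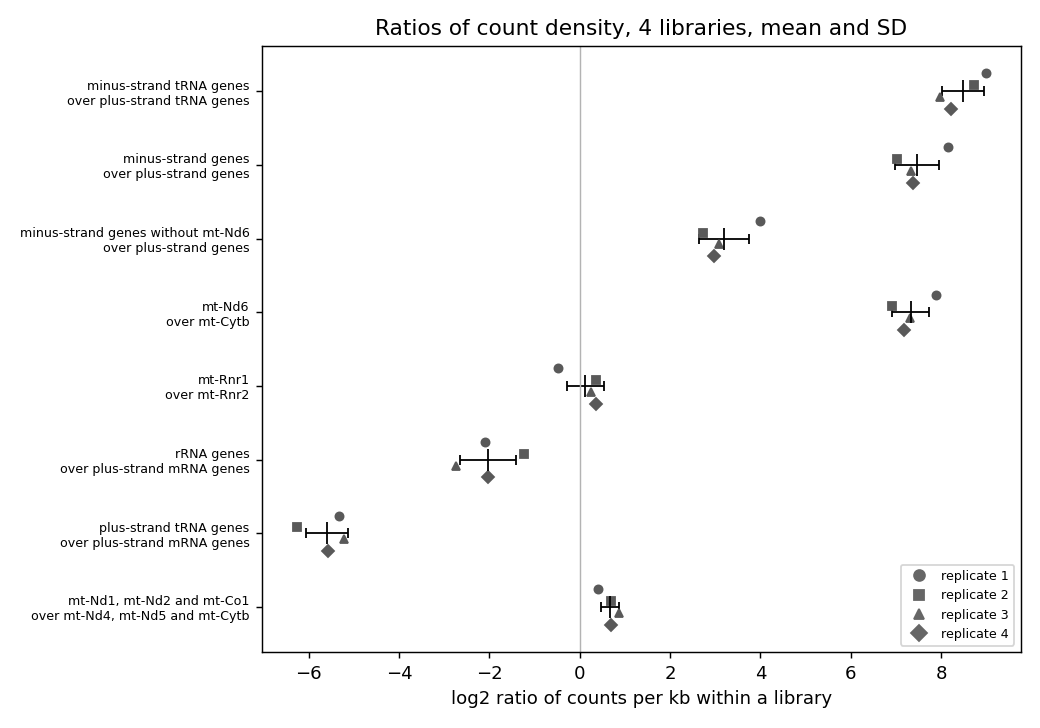
The 8 density ratios on the log2 scale, by library (symbols) with mean and SD (black). Ratios with the minus strand on top lie above 0 in all 4 libraries, from 2.73 to 8.99, the rRNA and plus-strand tRNA ratios to mRNA lie below 0, and mt-Rnr1 over mt-Rnr2 straddles 0.

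Spread between libraries was examined with edgeR, which asked for each gene whether its quasi-dispersion exceeded the trend fitted over genes of like abundance. Of 5755 genes that passed its filter on low counts, 16 were called at a Benjamini-Hochberg adjusted p of 0.05, or 0.278%. Among the 37 mitochondrial genes 14 passed the filter and 1 was called, mt-Co1, with a quasi-dispersion 10.5 times its prior (edgeR adjusted p = 0.000519). It had 247, 507, 624 and 492 CPM, with replicate 1 the lowest. It was not called without replicate 1 or with no filter on low counts. mt-Rnr1 came next and was not called (edgeR adjusted p = 0.155). DESeq2 marked the dispersion of 21 genes as outlying, 0.365%, among them mt-Co1 and mt-Rnr1. The minus-strand genes mt-Nd6 and mt-Tp had quasi-dispersions below the trend, at 0.487 and 0.447 times their prior. The plus strand summed to 801, 1442, 1502 and 1388 CPM in replicates 1 to 4, while nuclear genes with no opposite-strand exon held 10.6%, 12.5%, 12.3% and 10.5% of nuclear counts, so replicate 1 was low in the first measure and replicates 1 and 4 in the second.

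Nuclear genes that copy, transcribe and process mitochondrial DNA and RNA were listed to place these counts in the cell. Of 36 such genes, 25 had a mean of 1 TPM or more, or 69.4%, beside 33.9% of 21751 nuclear protein-coding genes, and the medians were 1.93 TPM for the list and 0.144 TPM for those genes. An opposite-strand exon was present in 17 of the 36 list genes, beside 4798 of the 21751, so the comparison was not matched for overlap. The 17 list genes with one had a median of 11.7 TPM, and 88.2% of them reached 1 TPM. For the 19 without one, the median was 1.08 TPM and 52.6% reached 1 TPM. The part of overlap in the higher share of the list was not tested. All 8 genes of RNA processing and tRNA maturation, 4 of 5 of replication, 7 of 11 of transcription and 6 of 12 of RNA stability and decay reached 1 TPM.

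The highest members of these classes overlapped exons of opposite-strand genes. TPM here counts fragments in the annotated orientation. It was not read as the level of the named transcript, for high or low genes. Slirp, which with Lrpprc stabilises mitochondrial mRNAs, had 654 ± 55.6 TPM (SD, n = 4) and shares 945 exon bases with Snw1. Trnt1, which adds the CCA end to tRNAs, had 210 ± 18.8 TPM and shares 144 bases with Crbn. Fastk, of a family of mitochondrial RNA-binding proteins, had 197 ± 10.9 TPM and Ptcd1, a mitochondrial RNA-binding protein, had 169 ± 19.5 TPM, with Slc4a2 and Bud31 on the opposite strand. Mgme1, an exonuclease of mitochondrial DNA, had 41.2 ± 9.63 TPM and Polg, the mitochondrial DNA polymerase, 26.0 ± 1.41 TPM. Low values occurred in both sets: mean TPM ran from 0.0649 (Mterf4) to 654 in the 17 with an opposite-strand exon. It ran from 0.0535 to 5.00 in the 19 without one. Among the latter, Tfam, which packages mitochondrial DNA and activates its transcription, had 1.84 ± 1.00 TPM. Polrmt, the mitochondrial RNA polymerase, had 1.08 ± 0.370 TPM and Lrpprc 0.657 ± 0.311 TPM. Mterf1a, a termination factor, and Fastkd5, which acts in mRNA processing, had 1 count each over the 4 libraries.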

How the data were processed

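Per the file headers, the authors aligned read pairs with STAR and counted fragments per gene with featureCounts 1.4.6-p4 over exons of GENCODE mouse release 13 on mm10, requiring both ends aligned, with strand setting 1 and without the options for multimapping fragments or fragments of more than 1 gene. The deposited counts were used as they stand, with the deposited exon length (another column) for densities. The library kit and any trimming step are not given in these sources, and signal tracks for each strand were not analysed here.

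The 37 genes, gene lists and tests were chosen with earlier results of these data known. All mRNA and rRNA genes, the 4 tRNA genes with the highest mean count on each strand and those at 0 are named, with pathway genes by rank within their class. Tfam, Polrmt, Lrpprc, CT010467.1 and the marker genes given with a value were named after their values were seen. Symbols matched by identifier for 50376 of 50600 genes. Counts per kb, CPM and TPM were computed in Python 3.11.15 with pandas 2.3.3 and scipy 1.17.1. Density ratios were tested by exact two-sided sign-flip permutation over libraries (16 sign patterns). Dispersion was tested with edgeR 4.0.16 (filterByExpr, TMM, intercept only) and with DESeq2 1.42.0. Copies were found with blastn 2.17.0 and exon overlaps with bedtools 2.31.1. The dispersion and ratio scripts were tested on simulated data.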

Additional observations from a re-analysis of the deposited data

Results flagged for a closer look

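Single libraries stood apart from the other 3 for 7 of 46 quantities examined, by the gap of an extreme library to its nearest neighbour as a share of the whole range, and chance does this for about 1 in 20 groups. Replicate 1 was the low library in 6 of them. Its mt-Nd1 count was 62.4 CPM where the other libraries had 109.2 to 115.0, a gap of 0.889 of the range. For mt-Nd5 it was 129 CPM beside 198 to 206 (0.887), and for mt-Cytb 154 CPM beside 244 to 253 (0.915). The same library was low for plus-strand complex I genes together (358 CPM beside 558 to 580, 0.901), for the whole plus strand (801 CPM beside 1388 to 1502, 0.837) and for the log2 density ratio of mt-Rnr1 to mt-Rnr2 (-0.49 beside 0.25 to 0.37, 0.858). These quantities share genes and are not independent. In replicate 3, mt-Tn was high with 5.72 CPM, or 11 counts, beside 1.88 to 2.13 CPM (0.935).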

How the results depend on the processing

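Over 85 alternative settings, 77 kept the direction of a ratio or the size of a share or count, 3 turned the direction and 5 moved a share or a count. Ratios that kept their direction still changed in size. Minus over plus strand was 3.72 with no division by gene length, beside 7.47, and minus-strand over plus-strand tRNA genes was 5.57 without mt-Te and mt-Tp, beside 8.48. Minus-strand genes without mt-Nd6 over plus-strand genes was 0.28 without mt-Te and mt-Tp and 5.82 with log2 densities averaged over genes, beside 3.19. With no division by gene length, minus-strand genes without mt-Nd6 over plus-strand genes had a log2 ratio of -1.52 and mt-Rnr1 over mt-Rnr2 one of -0.61, since both ratios compare sets of unequal length. With log2 densities averaged over genes, rRNA over plus-strand mRNA genes was 1.65. The mitochondrial share was 1.97% without CT010467.1 and 0.175% without mt-Nd6. The number of mitochondrial genes more variable than the trend was 1, and it was 0 with no filter, 2 with DESeq2, and 0 to 1 when 1 library was left out, the 0 being without replicate 1. In edgeR, an unadjusted p under 0.05 was reached by 6 of the 14 genes tested, by 4 of 23 with no filter and by 2 of 14 without replicate 1. The share of all tested genes under this cut was not computed, so these numbers were not read as a result. With 3 libraries the smallest exact permutation p is 0.25. Leaving out mt-Te and mt-Tp was an alternative chosen after seeing the data. No paired comparison of groups was possible because there was 1 group, while the density ratios compared genes within each library. Depth limits the plus-strand tRNA genes, at 3 to 6 counts per library in all. Gene counts carry no position within a gene and no base, so reads of mt-Co2 to mt-Nd4l and of their chromosome 1 copies cannot be told apart here.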
